A study of Mus musculus with 29 samples.

Results

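Expression of genes for cholesterol synthesis was described in splenic and hepatic macrophages of 2 genotypes, wild-type and Rnaset2-/- (lacking RNase T2), sorted from untreated mice. The genes were chosen by name. They are Hmgcs1, Idi1, Fdft1, Sqle, Lss and Cyp51, which encode enzymes of the pathway from acetyl-CoA to sterols, and Srebf2, which encodes the transcription factor SREBP2. The table used here held 6 of these 7 genes among 23930, and Idi1 was not analysed here. No uptake receptor is among the 7, so sterol uptake and transport are given by a separate list of genes.

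RNA was sequenced from 29 libraries in 9 groups. Splenic and hepatic Ly6Chi macrophages (CD11b+ Ly6G- SiglecF- NK1.1-) were represented by 3 libraries of each genotype from each organ. Ly6Clow macrophages, gated the same way with Fcgr4 as well, were represented by 3 wild-type and 4 Rnaset2-/- libraries from the spleen and by 3 of each genotype from the liver. Kupffer cells (KCs), the resident macrophages of the liver, came from wild-type mice only, with 4 libraries sorted as F4/80+ Tim4+ cells with intermediate CD11b and low PDCA-1. Rnaset2-/- mice lack both mouse genes for RNase T2, Rnaset2a and Rnaset2b, which encode a lysosomal ribonuclease. The wild-type mice were C57BL/6. The sources used here do not give the ages of the mice, the sex behind each library or whether each library came from its own mouse, so the p-values measure only the spread between these libraries, which may be technical.

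Cholesterol synthesis is governed by a feedback loop. When sterol in the endoplasmic reticulum is scarce, SCAP escorts SREBP2 to the Golgi, where the proteases encoded by Mbtps1 and Mbtps2 release its active part, which then raises transcription of the synthesis enzymes and of its own gene. When sterol is plentiful, INSIG1 and INSIG2 hold SCAP back, while oxysterols and late intermediates of synthesis activate the liver X receptors (LXRs), which raise transcription of genes for cholesterol efflux, such as Abca1 and Abcg1. Macrophages that engulf dying cells and red blood cells take in much cholesterol, and the LXR arm is best known there for its export.

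Values are RPM, reads of a gene scaled to a fixed total of reads per library, measured with 1 amplicon per gene, so levels of different genes are not compared. The libraries held 11175843 to 21167602 reads, and 3 reads, taken as the detection floor, corresponded to 0.142 to 0.268 RPM, which covers counting error only. The splenic Rnaset2-/- Ly6Chi libraries held 20404155 to 21167602 reads and all others at most 14572065, so depth ran with genotype there, and its part was not tested. Each comparison was fitted with limma on log2(RPM divided by a scaling factor + 1), and a log2 fold change on this scale understates changes of low genes. A gene is called changed at more than 1.5-fold with an adjusted p (Benjamini-Hochberg, over all genes tested) below 0.05. In bulk samples such as these, fewer cells of a type and less RNA per cell cannot be told apart. The 9 macrophage and monocyte markers analysed summed to 5029 to 41367 RPM, so every group held them. The RNase T2 genes were not analysed here, so the genotype labels were not checked by the targeted genes. Replicate 1 of both hepatic Rnaset2-/- groups stood apart from the other libraries of its group across all genes. In the splenic Rnaset2-/- Ly6Clow group replicates 3 and 4 were close to each other, whereas replicate 2 lay further off and replicate 1 furthest. The splenic wild-type Ly6Chi libraries lay closer to each other than the libraries of any other group, which bears on the spread in every comparison with them. All 6 hepatic Rnaset2-/- libraries had up to 0.154 RPM of Xist and 150 to 291 RPM summed over 4 Y-linked genes, whereas the 6 hepatic wild-type Ly6C libraries had 321 to 539 RPM of Xist, and 4 of these (replicates 2 and 3 of both subsets) held RNA of both kinds, with up to 52.0 RPM of the Y-linked genes, so that the hepatic comparisons of genotype cannot be told apart from sex. In the spleen, replicate 2 of the Rnaset2-/- Ly6Clow group had 0.781 RPM of Xist and 301 RPM of the Y-linked genes.

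The promoters of the genes are shown first because SREBP2 acts on them through a short DNA sequence, the sterol regulatory element. RefSeq (GRCm38.p6) gave a stretch of 300 bases, from 250 before the start of transcription to 50 after it, for 5 of the 7 genes, and none was given for Sqle and Fdft1. Those of Hmgcs1 (chr13:119690101-119690400, plus strand), Cyp51 (chr5:4104648-4104947, minus strand) and Srebf2 (chr15:82147019-82147318, plus strand) are printed with the letters TCACCNCA, which form the core of the element, in capitals, and that of Lss (chr10:76531355-76531654, plus strand) is shown as a gene of the pathway in which those letters did not occur. Each is written 5′ to 3′ on the strand of the gene.
Hmgcs1: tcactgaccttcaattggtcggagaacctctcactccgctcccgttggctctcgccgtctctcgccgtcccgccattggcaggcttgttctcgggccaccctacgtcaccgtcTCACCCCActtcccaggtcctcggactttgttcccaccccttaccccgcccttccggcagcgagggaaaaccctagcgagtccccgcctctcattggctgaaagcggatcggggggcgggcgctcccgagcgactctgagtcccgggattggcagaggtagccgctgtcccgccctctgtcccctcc
Cyp51: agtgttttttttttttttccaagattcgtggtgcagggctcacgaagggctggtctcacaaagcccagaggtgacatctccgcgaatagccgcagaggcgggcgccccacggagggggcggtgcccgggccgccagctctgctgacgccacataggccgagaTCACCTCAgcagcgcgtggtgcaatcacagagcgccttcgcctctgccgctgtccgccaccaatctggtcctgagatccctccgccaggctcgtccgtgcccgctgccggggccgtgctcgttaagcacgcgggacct
Srebf2: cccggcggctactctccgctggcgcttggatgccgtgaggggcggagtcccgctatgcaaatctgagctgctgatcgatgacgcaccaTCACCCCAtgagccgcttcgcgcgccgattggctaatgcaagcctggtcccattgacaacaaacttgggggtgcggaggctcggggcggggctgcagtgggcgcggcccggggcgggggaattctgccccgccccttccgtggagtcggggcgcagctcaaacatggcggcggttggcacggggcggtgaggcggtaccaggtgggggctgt
Lss: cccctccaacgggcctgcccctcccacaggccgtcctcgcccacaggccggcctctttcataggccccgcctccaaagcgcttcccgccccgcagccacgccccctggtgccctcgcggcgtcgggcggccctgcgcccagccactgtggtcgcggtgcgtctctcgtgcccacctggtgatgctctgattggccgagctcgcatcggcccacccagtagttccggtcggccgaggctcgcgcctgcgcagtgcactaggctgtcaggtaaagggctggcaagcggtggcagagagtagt

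The whole sterol regulatory element was found in none of these promoters and in 0.091% of 32851 promoters of this length, searched on both strands. A relaxed form, which allows any base at a single position, was also found in none of these promoters and in 0.234% of all. The core TCACCNCA was held by 4.42% of all promoters. It was chosen after the promoters had been seen, so its matches are a description and no test against this share. It began at position -137 from the start of transcription in Hmgcs1 (TCACCCCA), at -88 in Cyp51 (TCACCTCA) and at -162 in Srebf2 (TCACCCCA), and it did not occur in these windows of Lss and Idi1. The CCAAT box (CCAAT), bound by NF-Y, occurred 4 times in Hmgcs1, 2 times in Idi1 and 1 time each in Lss, Cyp51 and Srebf2, and was held by 37.4% of all promoters. The GC box (GGGCGG), bound by Sp1, occurred 3 times in Hmgcs1, 2 times in Lss, 5 times in Srebf2 and 1 time each in Cyp51 and Idi1, and was held by 35.7% of all. The core lies inside the whole element, and neither contains the CCAAT box or the GC box.

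The levels of the 6 genes in the 9 groups are described first. Hmgcs1 (chromosome 13), which makes HMG-CoA at the start of the pathway, ranged over 2.42-fold between group means. It was highest in hepatic wild-type Ly6Chi macrophages, with 85.1, 71.2 and 55.4 RPM in replicates 1 to 3, and lowest in splenic wild-type Ly6Clow macrophages, with 33.1, 21.5 and 32.9 RPM. The other 7 groups had means between 35.0 and 62.2 RPM, and no 2 neighbours in the order of the 9 means were free of overlap.

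Sqle (chromosome 15) encodes squalene epoxidase, the first oxygen-requiring step of the pathway and a point of control. Its group means ranged over 3.73-fold. In hepatic wild-type libraries it was at 61.0, 36.0 and 35.8 RPM in Ly6Chi and at 45.6, 29.3 and 31.7 RPM in Ly6Clow macrophages. The 4 KC libraries had 12.4, 3.58, 19.5 and 12.0 RPM. All 6 wild-type hepatic Ly6C libraries were thus above every KC library and every splenic library, while the means of the other 7 groups, from 11.9 to 22.2 RPM, formed a run in which every neighbour overlapped.

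Fdft1 (chromosome 14) encodes squalene synthase, which commits farnesyl units to sterols. Its means ranged over 2.49-fold, from 37.0 ± 6.34 RPM (SD, n = 3) in hepatic wild-type Ly6Chi macrophages to 14.8 ± 2.12 RPM (n = 3) in hepatic Rnaset2-/- Ly6Clow macrophages. In the 4 groups of Ly6Chi macrophages the libraries lay between 23.8 and 43.6 RPM, and in the 4 groups of Ly6Clow macrophages between 10.2 and 35.7 RPM. All neighbours in the order of group means overlapped.

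Lss (chromosome 10) encodes lanosterol synthase, which closes the sterol rings. It was highest in KCs, with 19.6, 6.41, 14.9 and 13.3 RPM, and lowest in splenic Rnaset2-/- Ly6Chi macrophages, with 4.54, 2.35 and 3.85 RPM. This is a range of 3.79-fold between means. The splenic Rnaset2-/- Ly6Chi group did not overlap the group next above it in the order, hepatic wild-type Ly6Clow macrophages, and splenic wild-type Ly6Clow macrophages did not overlap hepatic Rnaset2-/- Ly6Chi macrophages next below them.

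Cyp51 (chromosome 5) encodes lanosterol demethylase, the first step after lanosterol. Its means ranged over 2.96-fold, from 38.7 ± 7.95 RPM (SD, n = 3) in hepatic wild-type Ly6Chi macrophages to 13.1 ± 1.56 RPM (n = 4) in splenic Rnaset2-/- Ly6Clow macrophages. The 3 hepatic wild-type Ly6Chi libraries, at 46.9, 31.0 and 38.3 RPM, were above every library of the next group. Hepatic wild-type Ly6Clow macrophages, at 20.7 to 21.6 RPM, did not overlap hepatic Rnaset2-/- Ly6Clow macrophages next below them, at 12.2 to 18.5 RPM.

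Srebf2 (chromosome 15) had an order of its own, with a 3.93-fold range. It was lowest in KCs, with 20.6, 28.2, 25.0 and 22.5 RPM, next in hepatic wild-type Ly6Chi macrophages, with 38.7, 29.5 and 32.7 RPM, and then in hepatic wild-type Ly6Clow macrophages, with 47.4, 41.7 and 36.0 RPM. The means of the 6 other groups, from 69.5 to 94.5 RPM, overlapped between neighbours, and hepatic Rnaset2-/- Ly6Clow macrophages were at the top. The 3 wild-type liver groups were below every other library.

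**Figure D1:**
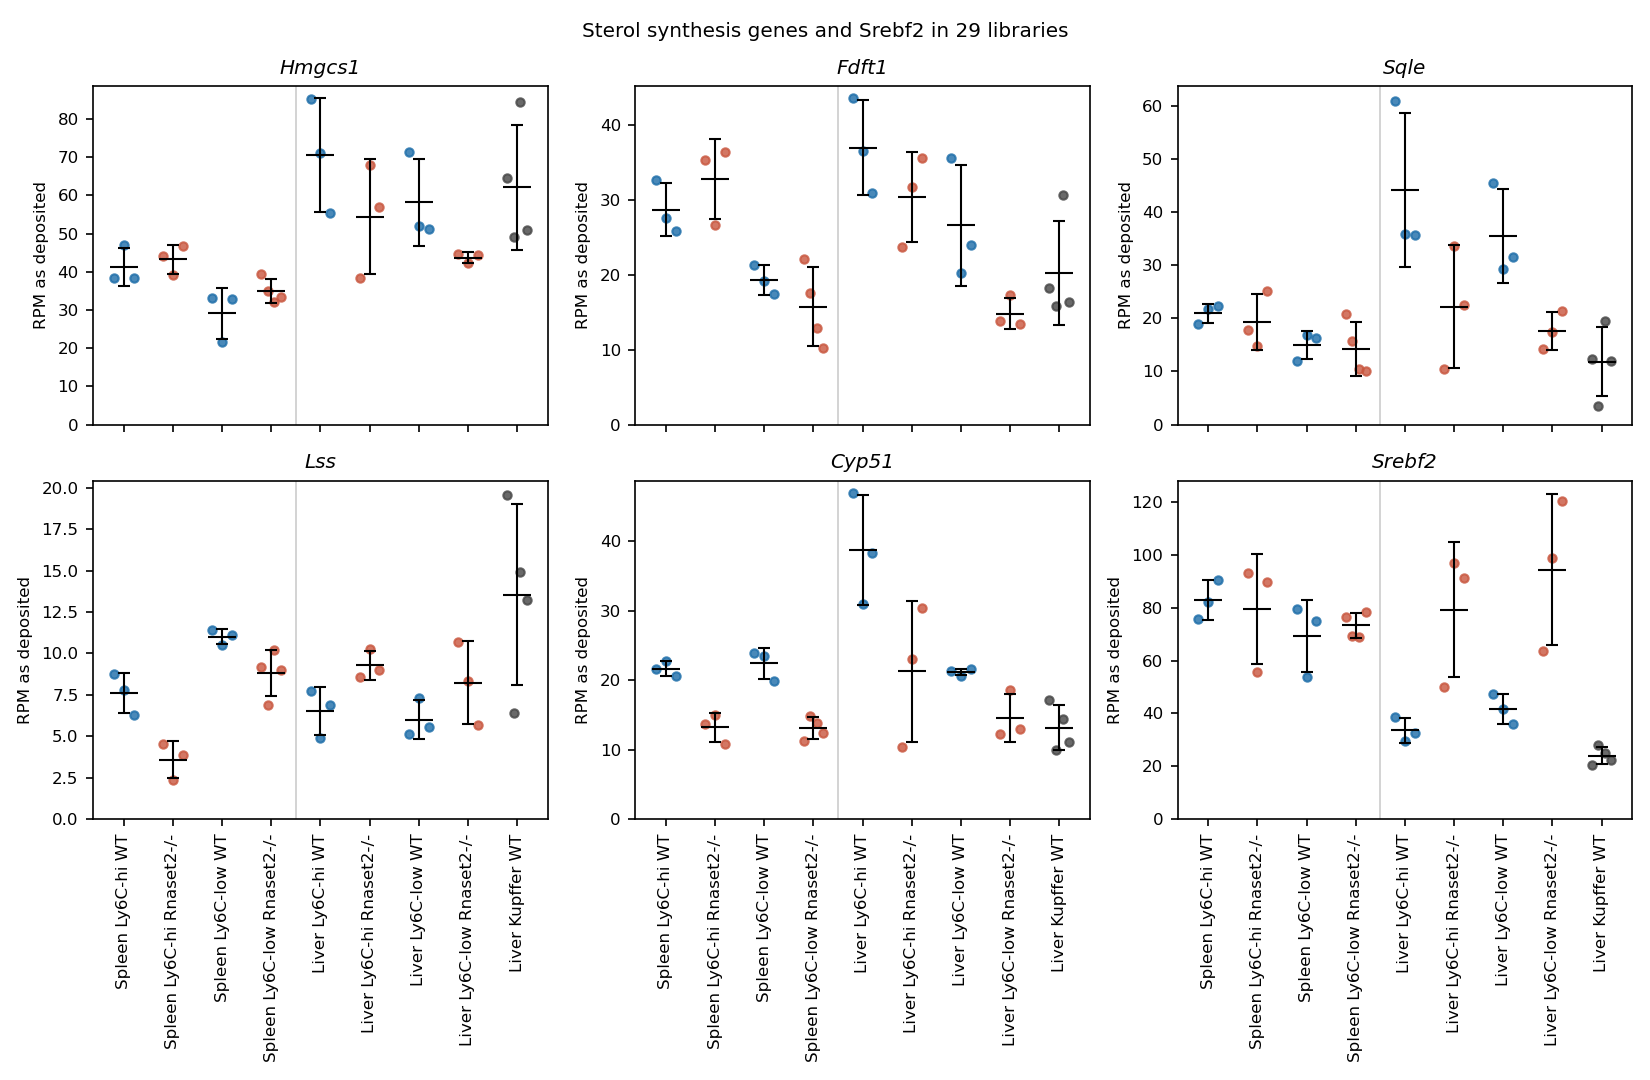
RPM as deposited (vertical axis, from 0) of the 6 genes in each of 29 libraries (points), by group (horizontal axis), with group means. Sqle and Cyp51 are highest in the hepatic wild-type Ly6Chi libraries, whereas Srebf2 is lowest in KCs (20.6 to 28.2 RPM) and in the hepatic wild-type Ly6C groups.

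The genes did not move as 1 unit across the 29 libraries. Sqle followed Cyp51 (Pearson r = 0.763) and Fdft1 (r = 0.757) most closely, and Hmgcs1 followed Sqle (r = 0.661). Lss had r between -0.40 and 0.04 with the other 5 genes, and Srebf2 had r = 0.201 with Sqle and r = -0.313 with Hmgcs1. These values describe libraries that share organ, genotype and preparation. The genes most like the mean of the 6 genes across the 29 libraries, among 7905 genes with a mean of at least 10 RPM, were Sc5d (r = 0.767), which encodes an enzyme late in the same pathway, Use1 (r = 0.762), Nepro (r = 0.754) and Brpf1 (r = 0.751).

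Expression in Rnaset2-/- and wild-type macrophages was then compared within each organ and subset, which asks what the loss of RNase T2 changes in each. In the spleen, 1 of the 6 genes was called in each subset, and both were lower in Rnaset2-/- macrophages. In the liver, 3 of 6 genes were called in each subset, with Srebf2 higher and Sqle lower in both, Cyp51 lower in Ly6Chi and Fdft1 lower in Ly6Clow macrophages. Of all genes tested, 22.2% were called in splenic Ly6Chi, 8.35% in splenic Ly6Clow, 30.6% in hepatic Ly6Chi and 42.7% in hepatic Ly6Clow macrophages. The counts of the 6 genes were thus close to what these shares give, and it is the direction and size for each gene that is described here. The median log2 fold change of the 6 genes was -0.0044 in splenic Ly6Chi, -0.20 in splenic Ly6Clow, -0.64 in hepatic Ly6Chi and -0.50 in hepatic Ly6Clow macrophages, where the median of all genes tested was 0.01 in each.

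In splenic Ly6Chi macrophages, Lss was at 8.74, 7.77 and 6.30 RPM in wild-type and at 4.54, 2.35 and 3.85 RPM in Rnaset2-/- libraries. Every Rnaset2-/- library was below every wild-type library. The log2 fold change was -0.84 ± 0.21 (SE; adjusted p = 0.0110, limma), and the call was lost without wild-type replicate 1 (adjusted p = 0.0646). Cyp51 was at 21.6, 22.8 and 20.7 RPM in wild-type and at 13.7, 14.9 and 10.9 RPM in Rnaset2-/- libraries, again without overlap. Its log2 fold change of -0.58 ± 0.15 (adjusted p = 0.0142) stayed just under the 1.5-fold limit, so that it was not called, whereas with RPM as deposited it was called at -0.69. Hmgcs1, Fdft1, Sqle and Srebf2 had log2 fold changes of 0.19, 0.29, -0.03 and 0.02 and were not called. In the same comparison, all 5 natural killer cell markers and all 4 T cell markers were lower (summed 391 to 432 against 15.6 to 46.3 RPM and 86.8 to 92.9 against 4.61 to 14.9 RPM), and all 10 proliferation genes were higher (838 to 878 against 1499 to 1957 RPM). Both erythroid markers tested (list sum 103 to 107 against 2.69 to 9.21 RPM), 4 of 5 dendritic cell markers (291 to 302 against 139 to 200 RPM) and 5 of 9 immediate early genes (13772 to 14092 against 7257 to 9500 RPM) were lower, and 7 of 10 neutrophil and granulocyte precursor markers were higher (30459 to 32688 against 33438 to 57905 RPM). The part of these differences in the result was not tested.

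In splenic Ly6Clow macrophages, Cyp51 fell from 24.0, 23.5 and 19.9 RPM in wild-type to 11.3, 14.8, 13.8 and 12.3 RPM in Rnaset2-/- libraries. No Rnaset2-/- library reached the lowest wild-type library. The log2 fold change was -0.73 ± 0.16 (adjusted p = 0.0284), but the call was lost on leaving out any wild-type replicate or replicate 4 of the Rnaset2-/- group (adjusted p = 0.0585 to 0.110). Without Rnaset2-/- replicate 2, the library that differed in Xist, the log2 fold change was -0.78 (adjusted p = 0.0490). The call held without replicate 1 as well, which lay furthest from replicates 3 and 4 across all genes. Within the Rnaset2-/- group, Sqle (20.8, 15.8, 10.5 and 10.1 RPM) and Fdft1 (22.2, 17.6, 12.9 and 10.2 RPM) fell from replicate 1 to 4. The other 5 genes were not called, with log2 fold changes between -0.33 (Fdft1) and 0.29 (Hmgcs1). Srebf2 was at 68.9 to 78.3 RPM in Rnaset2-/- libraries and at 54.0 to 79.5 RPM in wild-type libraries. All 5 natural killer cell markers were lower in Rnaset2-/- libraries (summed 63.5 to 106 against 4.51 to 30.2 RPM), and 3 of the 4 erythroid markers tested were higher (37.9 to 97.2 against 54.0 to 944 RPM). The summed levels of the sinusoidal endothelial markers (271 to 325 against 1461 to 2202 RPM, 1 of 3 tested called), the neutrophil and granulocyte precursor markers (1017 to 2349 against 3244 to 38830 RPM, 1 of 10 called) and the KC markers (58.5 to 83.6 against 159 to 580 RPM, 2 of 4 tested called) did not overlap between genotypes, and their part in the result was not tested.

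In hepatic Ly6Chi macrophages, Sqle was at 61.0, 36.0 and 35.8 RPM in wild-type and at 10.5, 33.7 and 22.5 RPM in Rnaset2-/- libraries. The groups did not overlap, and replicate 1 was at the far end of each. The log2 fold change was -1.36 ± 0.38 (adjusted p = 0.0290). Cyp51 was at 46.9, 31.0 and 38.3 RPM in wild-type and at 10.4, 23.0 and 30.5 RPM in Rnaset2-/- libraries, a log2 fold change of -1.25 ± 0.33 (adjusted p = 0.0260) in which the highest Rnaset2-/- library came close to the lowest wild-type library. Srebf2 went the other way, from 38.7, 29.5 and 32.7 RPM to 49.9, 96.9 and 91.2 RPM, a log2 fold change of 0.85 ± 0.24 (adjusted p = 0.0310).

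Hmgcs1 (-0.70 ± 0.23, adjusted p = 0.0514) and Fdft1 (-0.59 ± 0.20, adjusted p = 0.0532) were just outside the threshold in hepatic Ly6Chi macrophages, and Lss was at 0.19 ± 0.25 (adjusted p = 0.596). In RPM as deposited, however, the 3 Rnaset2-/- libraries, at 8.60, 10.3 and 9.0 RPM of Lss, were above the 3 wild-type libraries, at 7.72, 4.92 and 6.89 RPM. These values depend on the scaling between libraries. The scaled values are relative to the bulk of the genes. With RPM as deposited, where the median of all genes lay at 0.31 on the log2 scale, Sqle was at -1.06 and Cyp51 at -0.94, both without a call, and Srebf2 was at 1.16 with a call. Among fits that left out 1 library, the call of Sqle was lost on leaving out any wild-type replicate or replicate 3 of the Rnaset2-/- group (adjusted p = 0.0511 to 0.105). That of Cyp51 was lost when replicate 1 or 3 of the wild-type or replicate 2 of the Rnaset2-/- group was left out (adjusted p = 0.0586 to 0.0957), and that of Srebf2 without any wild-type replicate or Rnaset2-/- replicate 2 or 3 (adjusted p = 0.0610 to 0.110). Without Rnaset2-/- replicate 1, which stood apart, all 3 calls held, with log2 fold changes of -0.99 for Sqle, -0.88 for Cyp51 and 1.09 for Srebf2.

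In hepatic Ly6Clow macrophages, Sqle fell from 45.6, 29.3 and 31.7 RPM in wild-type to 14.2, 17.4 and 21.4 RPM in Rnaset2-/- libraries (log2 fold change -0.999 ± 0.24, adjusted p = 0.00955). Srebf2 rose from 47.4, 41.7 and 36.0 RPM to 63.8, 98.9 and 120.7 RPM (1.08 ± 0.25, adjusted p = 0.00917). For both genes the groups did not overlap, and the call held in each of the 6 fits that left out 1 library. Fdft1 fell from 35.7, 20.2 and 24.0 RPM to 13.9, 17.3 and 13.4 RPM (-0.81 ± 0.23, adjusted p = 0.0213), and this call was lost without wild-type replicate 1 or 3 (adjusted p = 0.0580 to 0.0730). Cyp51 was at 20.7 to 21.6 RPM in wild-type and at 12.2 to 18.5 RPM in Rnaset2-/- libraries, without overlap, and its log2 fold change of -0.57 ± 0.20 (adjusted p = 0.0486) was under the 1.5-fold limit. Hmgcs1 (-0.43 ± 0.18, adjusted p = 0.0795) and Lss (0.34 ± 0.27, adjusted p = 0.347) were not called.

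**Figure D2:**
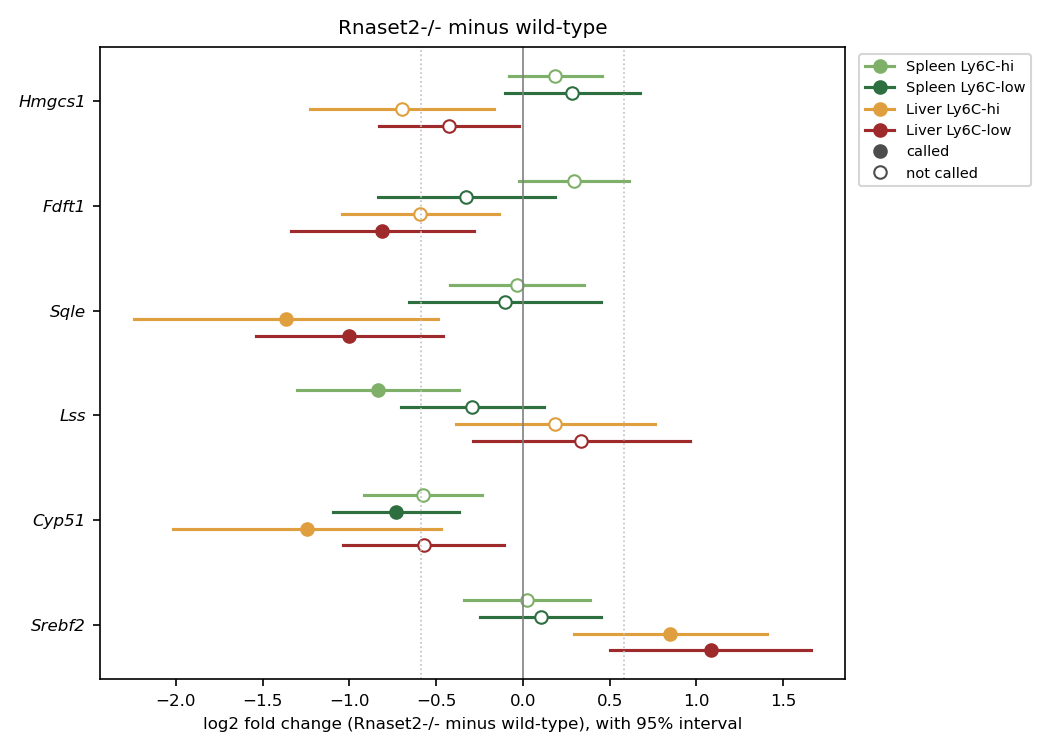
Log2 fold change, Rnaset2-/- minus wild-type (horizontal axis), of the 6 genes (rows) in 4 pairs of groups (colours), with 95% intervals, filled points being called. In both hepatic subsets Sqle lies below 0 (-1.36 and -0.999) and Srebf2 above it (0.85 and 1.08), while in the spleen both lie near 0.

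Other measures moved with genotype in the liver. All 9 immediate early genes were lower in Rnaset2-/- macrophages, with a summed level of 26494 to 28064 RPM in wild-type against 2841 to 5852 RPM in Rnaset2-/- Ly6Chi libraries and 20917 to 28434 against 1062 to 1893 RPM in Ly6Clow libraries. T cell markers summed to at most 1.25 RPM in wild-type libraries, where 3 of the 4 analysed were at or under 3 reads in every library, against 75.0 to 189 RPM in Rnaset2-/- Ly6Chi and 22.2 to 63.1 RPM in Rnaset2-/- Ly6Clow libraries. Sinusoidal endothelial markers were at 76.8 to 109 against 371 to 2249 RPM in Ly6Chi and at 254 to 423 against 1105 to 4097 RPM in Ly6Clow libraries. Markers of B cells (19.0 to 30.0 against 92.1 to 370 RPM over both subsets) and of erythroid cells (at most 4.71 against 51.1 to 254 RPM) were also higher in Rnaset2-/- libraries. In Ly6Chi macrophages 4 of 5 natural killer cell markers (7.60 to 16.5 against 36.8 to 326 RPM) and 8 of 10 proliferation genes (48.7 to 99.8 against 226 to 299 RPM) were higher, as were 5 of 10 proliferation genes in Ly6Clow macrophages (173 to 184 against 219 to 491 RPM). Of the 9 macrophage and monocyte markers, 5 were lower and 2 higher in Ly6Clow macrophages (19123 to 25209 against 7881 to 13840 RPM). Of the KC markers, 4 of the 5 tested were higher in Rnaset2-/- Ly6Chi macrophages (summed 49.9 to 60.7 against 455 to 575 RPM). All 6 were higher in Rnaset2-/- Ly6Clow macrophages, at 6609 to 10871 RPM against 139 to 180 RPM in wild-type and 6080 to 17838 RPM in KCs. The part of these differences, and of sex, in the values of the sterol genes was not tested.

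Whether the genotype difference itself differed was tested by interaction. Between the 2 subsets, 0 of the 6 genes were called in the spleen (14.7% of all genes) and 0 in the liver (10.3%) by limma, with 1 gene in the spleen (Fdft1) and 0 in the liver at an unadjusted p below 0.05. DESeq2 and edgeR on the recovered reads called 0 of 6 as well. Between the organs, 5 of 6 genes were called in Ly6Chi macrophages (33.5% of all genes) and 2 of 6 in Ly6Clow macrophages (26.8%). In Ly6Chi macrophages the genotype difference in the liver minus that in the spleen was -0.85 ± 0.26 for Hmgcs1 (adjusted p = 0.0232), -1.30 ± 0.45 for Sqle (0.0405), -0.85 ± 0.24 for Fdft1 (0.0152), 1.05 ± 0.32 for Lss (0.0241) and 0.86 ± 0.31 for Srebf2 (0.0467). Lss thus differed between organs in the direction opposite to that of Hmgcs1, Sqle and Fdft1. The value for Cyp51 was -0.64 ± 0.39 (adjusted p = 0.223). In Ly6Clow macrophages the values were -0.70 ± 0.24 for Hmgcs1 (adjusted p = 0.0431) and 0.99 ± 0.30 for Srebf2 (0.0278), and Sqle was at -0.89 ± 0.35 (0.0776).

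Of the 7 differences called between organs, only that of Fdft1 in Ly6Chi macrophages kept its call in every fit that left out 1 library. In Ly6Chi macrophages Hmgcs1 lost its call in 4 of 12 fits (without splenic wild-type replicate 1 or 3, splenic Rnaset2-/- replicate 3 or hepatic wild-type replicate 1, adjusted p = 0.0521 to 0.0586) and Lss in 4 (without splenic wild-type replicate 1 or 2, splenic Rnaset2-/- replicate 2 or hepatic wild-type replicate 2, adjusted p = 0.05005 to 0.0671). Sqle lost it in 7 (all but those without splenic Rnaset2-/- replicate 2, hepatic wild-type replicate 2 or 3 or hepatic Rnaset2-/- replicate 1 or 2, adjusted p = 0.0589 to 0.0989), and Srebf2 in 9 (all but those without splenic Rnaset2-/- replicate 1, hepatic wild-type replicate 1 or hepatic Rnaset2-/- replicate 1, adjusted p = 0.0533 to 0.120). In Ly6Clow macrophages Hmgcs1 lost it in 10 of 13 fits (all but those without splenic wild-type replicate 1 or 3 or hepatic Rnaset2-/- replicate 3, adjusted p = 0.0542 to 0.106) and Srebf2 in 6 (without splenic wild-type replicate 1 or 3, splenic Rnaset2-/- replicate 2, hepatic wild-type replicate 3 or hepatic Rnaset2-/- replicate 2 or 3, adjusted p = 0.0526 to 0.0738). Without hepatic Rnaset2-/- replicate 1, which stood apart, 5 of 6 genes were called in Ly6Chi and 1 of 6 in Ly6Clow macrophages, and without splenic Rnaset2-/- replicate 2 limma called 0 of 6 in Ly6Clow macrophages. With RPM as deposited, Hmgcs1, Sqle and Fdft1 in Ly6Chi macrophages were at -0.46, -0.91 and -0.46 and were not called, where the median of all genes lay at 0.35, and Lss and Srebf2 were called at 1.40 and 1.25.

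Expression in the liver was next compared with that in the spleen, which asks how the same gate differs by organ. These comparisons share their groups with the genotype comparisons and are not independent of them. Other markers moved with organ. In wild-type Ly6Chi macrophages the summed levels in spleen and liver were 13772 to 14092 and 26494 to 28064 RPM for the immediate early genes, 30459 to 32688 and 301 to 2262 RPM for the neutrophil and granulocyte precursor markers, 391 to 432 and 7.60 to 16.5 RPM for the natural killer cell markers and 838 to 878 and 48.7 to 99.8 RPM for the proliferation genes. In wild-type Ly6Clow macrophages they were 13010 to 15898 and 20917 to 28434 RPM for the immediate early genes and 1017 to 2349 and 6.62 to 10.8 RPM for the neutrophil and granulocyte precursor markers. The Y-linked genes summed to at most 0.14 RPM in the splenic wild-type libraries. They reached 52.0 RPM in the hepatic wild-type Ly6C libraries, where replicates 2 and 3 of both subsets held them. The part of these differences in the result was not tested. In wild-type Ly6Chi macrophages, Hmgcs1 (log2 fold change 1.02 ± 0.17, adjusted p = 0.000922), Fdft1 (0.62 ± 0.16, adjusted p = 0.0104), Sqle (1.27 ± 0.21, adjusted p = 0.000988) and Cyp51 (1.06 ± 0.17, adjusted p = 0.000907) were higher in the liver and Srebf2 was lower (-1.01 ± 0.14, adjusted p = 0.000395), so that 5 of 6 genes were called where 37.8% of all genes were. Lss was at 0.04 ± 0.21, and at -0.20 with RPM as deposited. Fdft1 was at 0.35 and not called with RPM as deposited, where the median of all genes lay at -0.30, and its call was lost without splenic replicate 2 or 3 or hepatic replicate 1 (adjusted p up to 0.0627).

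In wild-type Ly6Clow macrophages, 4 of 6 genes were called (34.1% of all genes). Hmgcs1 (1.02 ± 0.19, adjusted p = 0.00234) and Sqle (1.22 ± 0.19, adjusted p = 0.000931) were higher in the liver, and Lss (-0.75 ± 0.20, adjusted p = 0.0117) and Srebf2 (-0.67 ± 0.17, adjusted p = 0.0106) were lower. Lss was at 11.4, 10.5 and 11.1 RPM in the spleen and at 5.13, 7.32 and 5.55 RPM in the liver, with no overlap. The call of Srebf2 was lost without splenic replicate 1 or 3 or hepatic replicate 3 (adjusted p up to 0.0510, and under the 1.5-fold limit where it was lower).

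In Rnaset2-/- mice fewer of the 6 genes were called between organs. All 3 splenic Ly6Chi libraries had 353 to 447 RPM of Xist, and the hepatic ones at most 0.154 RPM, so that organ and sex cannot be told apart in Rnaset2-/- Ly6Chi macrophages, and in Ly6Clow macrophages all 3 hepatic but only 1 of the 4 splenic libraries had Y-linked RNA in place of Xist. In Ly6Chi macrophages only Lss was called (28.1% of all genes), at 1.13 ± 0.24 (adjusted p = 0.0111), from 4.54, 2.35 and 3.85 RPM in the spleen to 8.60, 10.3 and 9.0 RPM in the liver. In Ly6Clow macrophages limma called 0 of 6 genes (36.1% of all genes), with 1 gene, Hmgcs1 (0.35 ± 0.14), at an unadjusted p below 0.05. Srebf2 was at -0.10 ± 0.26 in Ly6Chi and 0.34 ± 0.22 in Ly6Clow macrophages, and Sqle was at 0.02 ± 0.36 and 0.35 ± 0.26. Other markers moved with organ here as well. In Ly6Chi macrophages the summed neutrophil and granulocyte precursor markers were at 33438 to 57905 RPM (spleen) and 244 to 1751 RPM (liver). The proliferation genes were at 1499 to 1957 and 226 to 299 RPM. In Ly6Clow macrophages the immediate early genes were at 11827 to 17137 and 1062 to 1893 RPM. The KC markers were at 159 to 580 and 6609 to 10871 RPM. Their part in the result was not tested. The tests of the organ differences between the genotypes are the interactions above.

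**Figure D3:**
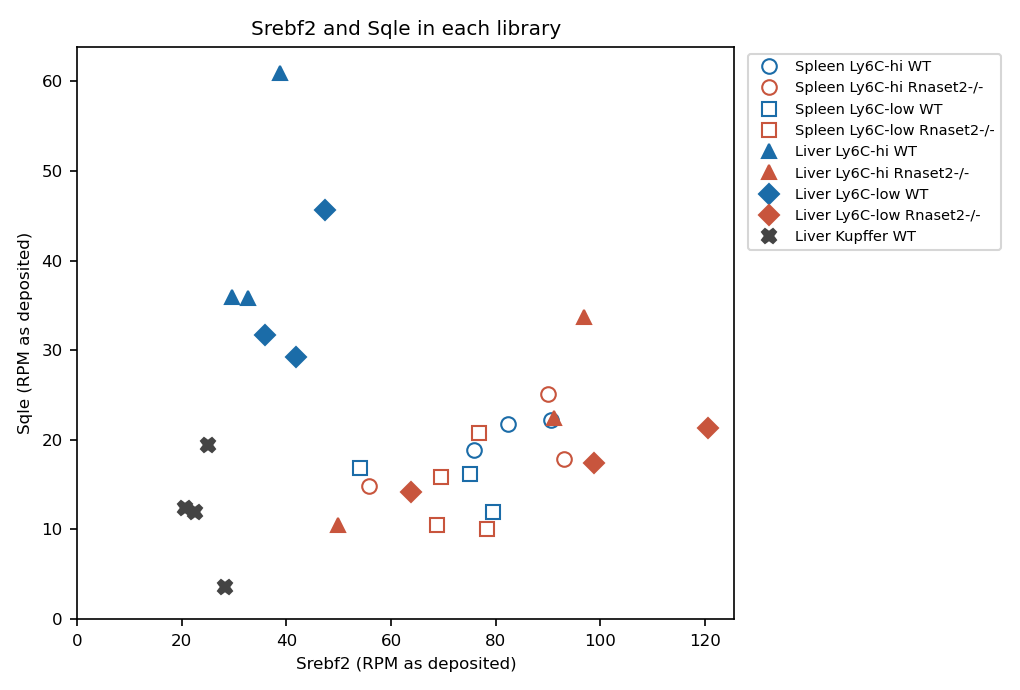
Srebf2 (horizontal axis) and Sqle (vertical axis) in RPM as deposited for each of 29 libraries (points), by group. The 6 hepatic wild-type Ly6C libraries lie at Srebf2 of 29.5 to 47.4 RPM and Sqle of 29.3 to 61.0 RPM, apart from KCs and from the spleen.

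Ly6Clow macrophages were compared with Ly6Chi macrophages of the same organ and genotype. In the wild-type spleen the neutrophil and granulocyte precursor markers (30459 to 32688 RPM in Ly6Chi against 1017 to 2349 RPM in Ly6Clow) and the proliferation genes (838 to 878 against 136 to 182 RPM) were lower in Ly6Clow macrophages, 10 of 10 in each list. In the Rnaset2-/- spleen 5 and 8 of 10 were lower, and the neutrophil and granulocyte precursor markers were lower in the liver as well (8 of 9 tested in wild-type and 7 of 7 in Rnaset2-/- macrophages). Other lists moved too. In the Rnaset2-/- liver the summed levels in Ly6Chi and Ly6Clow macrophages were 455 to 575 and 6609 to 10871 RPM for the KC markers. They were 36.8 to 326 and 4.05 to 11.1 RPM for the natural killer cell markers and 2841 to 5852 and 1062 to 1893 RPM for the immediate early genes. Their part in the result was not tested. Lss was higher in Ly6Clow macrophages of the spleen in both genotypes, at 0.62 ± 0.15 in wild-type (adjusted p = 0.00681) and 1.13 ± 0.23 in Rnaset2-/- libraries (adjusted p = 0.00779). The first value was at 0.49 and not called with RPM as deposited, where the median of all genes lay at -0.13, and it was under the 1.5-fold limit without Ly6Chi replicate 3 (0.50). Fdft1 was lower in Ly6Clow macrophages of Rnaset2-/- mice, in the spleen (-1.05 ± 0.23, adjusted p = 0.0112) and in the liver (-0.82 ± 0.19, adjusted p = 0.0301). In the spleen it was at 35.4, 26.7 and 36.5 RPM in Ly6Chi and at 22.2, 17.6, 12.9 and 10.2 RPM in Ly6Clow libraries, and that call was lost without Ly6Chi replicate 3 (adjusted p = 0.0504). In the liver it was at 23.8, 31.7 and 35.7 RPM against 13.9, 17.3 and 13.4 RPM, and that call held only in the fit without Ly6Chi replicate 1 (adjusted p of the others up to 0.119). Cyp51 was lower in Ly6Clow macrophages of the wild-type liver (-0.93 ± 0.20, adjusted p = 0.0187), a call lost without Ly6Chi replicate 1 or 3 or Ly6Clow replicate 3 (adjusted p = 0.0560 to 0.0702).

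The calls in these 4 comparisons came to 1 of 6 genes in the wild-type spleen (33.6% of all genes), 2 of 6 in the Rnaset2-/- spleen (28.1%), 1 of 6 in the wild-type liver (10.1%) and 1 of 6 in the Rnaset2-/- liver (17.0%). Hmgcs1, Sqle and Srebf2 were called in none of them, with log2 fold changes between -0.42 (Sqle, Rnaset2-/- spleen) and 0.42 (Srebf2, Rnaset2-/- liver).

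Each hepatic Ly6C group was also compared with wild-type KCs, which asks how the Ly6C subsets and the resident macrophages of the liver differ. Srebf2 was higher than in KCs in all 4 groups, with log2 fold changes of 1.13 ± 0.20 (wild-type Ly6Chi, adjusted p = 0.000527), 1.34 ± 0.18 (wild-type Ly6Clow, adjusted p = 0.000144), 2.02 ± 0.22 (Rnaset2-/- Ly6Chi, adjusted p = 0.000336) and 2.41 ± 0.25 (Rnaset2-/- Ly6Clow, adjusted p = 0.000144). No library of these groups overlapped the KC libraries. Sqle was higher in both wild-type groups (2.60 ± 0.42, adjusted p = 0.000262, and 2.22 ± 0.41, adjusted p = 0.00115), as was Cyp51 (2.15 ± 0.24, adjusted p = 1.73e-05, and 1.23 ± 0.23, adjusted p = 0.00100). Fdft1 was higher in wild-type Ly6Chi (1.53 ± 0.25, adjusted p = 0.000248), wild-type Ly6Clow (0.95 ± 0.26, adjusted p = 0.0111) and Rnaset2-/- Ly6Chi macrophages (0.97 ± 0.25, adjusted p = 0.0162), the last call being lost without Rnaset2-/- replicate 2 or 3 (adjusted p up to 0.0576). Hmgcs1 was called only against wild-type Ly6Chi macrophages (0.87 ± 0.22, adjusted p = 0.00494), and Lss in none.

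In Rnaset2-/- Ly6Clow macrophages, Sqle differed from KCs by 1.19 ± 0.45 (adjusted p = 0.0526), and with the replicate number as a block it was called (1.27, adjusted p = 0.0352). The calls came to 5 of 6 genes for wild-type Ly6Chi (54.6% of all genes), 4 of 6 for wild-type Ly6Clow (50.0%), 2 of 6 for Rnaset2-/- Ly6Chi (32.1%) and 1 of 6 for Rnaset2-/- Ly6Clow macrophages (45.6%). All 4 comparisons share the KC libraries. KC libraries also held more RNA of hepatocyte markers, 1241 to 3958 RPM over 7 genes against 11.2 to 188 RPM in the other hepatic libraries, more of the 4 B cell markers than both wild-type groups (423 to 801 against 19.0 to 30.0 RPM) and more of the 6 sinusoidal endothelial markers (2368 to 5969 against 76.8 to 423 RPM). Against the wild-type groups they also held more of the T cell markers (87.1 to 160 against at most 1.25 RPM) and proliferation genes (343 to 516 against 48.7 to 184 RPM). Natural killer cell (53.7 to 171 against 2.24 to 16.5 RPM) and erythroid markers (34.3 to 210 against at most 4.71 RPM) were higher as well. The 9 macrophage and monocyte markers were lower (5029 to 11615 against 19123 to 41367 RPM). KC libraries held less of the 9 immediate early genes, 1459 to 2556 RPM, than the wild-type groups and Rnaset2-/- Ly6Chi macrophages, whereas Rnaset2-/- Ly6Clow macrophages had 1062 to 1893 RPM. The part of these differences in the result was not tested. KC libraries also had 647 to 949 RPM of Xist and 0 RPM of the Y-linked genes. In both comparisons with Rnaset2-/- groups sex and genotype thus cannot be told apart. Replicates 2 and 3 of both hepatic wild-type Ly6C groups held up to 52.0 RPM of the Y-linked genes beside Xist. The part of this difference in the comparisons of the wild-type groups with KCs was not tested. KC replicate 3 stood apart from the other KC libraries across all genes. Without it the calls came to 5, 5, 2 and 2 of 6 genes in the same order of groups, with Hmgcs1 called against wild-type Ly6Clow (0.65) and Sqle against Rnaset2-/- Ly6Clow macrophages (1.46) as well.

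These comparisons depend strongly on the scaling. With RPM as deposited, the median of all genes lay at -0.39 to -0.67, a shift to which the scaled values above are relative. On the deposited scale Srebf2 was at 0.47 against wild-type Ly6Chi macrophages and not called, Hmgcs1 at 0.19 and not called, and Fdft1 at 0.39 against wild-type Ly6Clow and 0.59 against Rnaset2-/- Ly6Chi macrophages, both not called. The uncalled values of Hmgcs1 changed sign against wild-type Ly6Clow (0.51 and -0.08), Rnaset2-/- Ly6Chi (0.20 and -0.19) and Rnaset2-/- Ly6Clow macrophages (0.06 and -0.46), and so did that of Fdft1 against the last of these (0.12 and -0.38). Lss was called lower than in KCs on the deposited scale in wild-type Ly6Chi (-0.88) and wild-type Ly6Clow macrophages (-0.97).

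**Figure D4:**
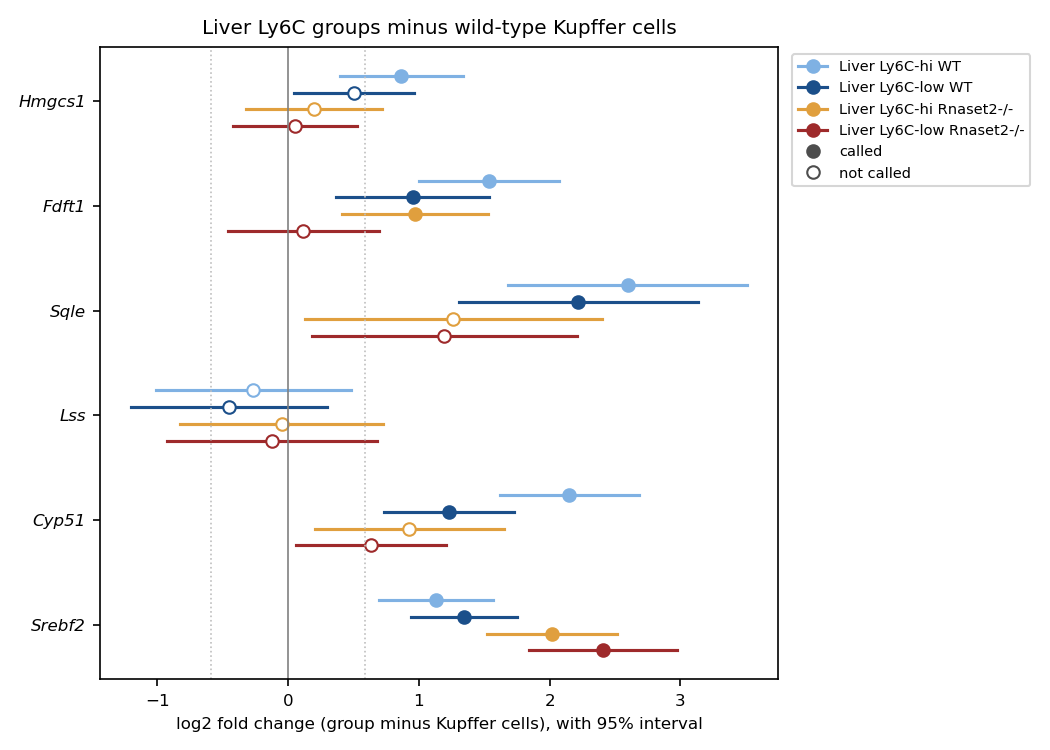
Log2 fold change, hepatic Ly6C group minus KCs (horizontal axis), of the 6 genes (rows) in 4 groups (colours), with 95% intervals, filled points being called. Srebf2 is called in all 4 groups, from 1.13 to 2.41, and Sqle and Cyp51 in the 2 wild-type groups.

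The genes around the 6 were given by lists fixed by function, and their counts in the genotype comparisons follow. Of 12 other enzymes of the mevalonate and sterol pathways analysed, limma called 0 in either splenic subset, with 3 in Ly6Chi and 2 in Ly6Clow macrophages at an unadjusted p below 0.05. The alternatives edgeR and DESeq2 each called 1 in Ly6Chi and 0 in Ly6Clow macrophages. In hepatic Ly6Chi macrophages 4 of 12 were called, where 30.6% of all genes were, and all 4 were lower. They were Pmvk, a kinase of the mevalonate steps (28.5 to 21.3 RPM, log2 fold change -0.71), Ggps1, which makes geranylgeranyl units and not sterols (60.7 to 42.1 RPM, -0.82), and the late-step enzymes Ebp (88.1 to 50.5 RPM, -1.13) and Sc5d (63.4 to 31.1 RPM, -1.32). With RPM as deposited, 2 were lower and 1 higher. In their Ly6Clow counterparts Ebp (-0.67) and Sc5d (-0.94) were lower, and Nsdhl (18 to 32.9 RPM, 0.85) and Dhcr7 (23.9 to 57.7 RPM, 1.16) were higher, where 42.7% of all genes were called. NSDHL removes methyl groups after lanosterol, and DHCR7 makes cholesterol from 7-dehydrocholesterol. The median log2 fold change of the 12 genes was -0.20 in hepatic Ly6Chi macrophages, with the sign turned to 0.06 with RPM as deposited, and 0.15 in hepatic Ly6Clow macrophages.

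Among 5 genes of SREBP processing, Insig1, whose product retains SCAP and whose own gene is an SREBP target, was lower in Rnaset2-/- macrophages in 3 of the 4 comparisons. In hepatic Ly6Chi macrophages Insig1 was at 173, 197 and 220 RPM in wild-type and at 33.3, 35.4 and 40.6 RPM in Rnaset2-/- libraries (-2.71 ± 0.17, adjusted p = 0.000148). Hepatic Ly6Clow macrophages had 86.3 to 135 RPM of it in wild-type and 38.8 to 47.0 RPM in Rnaset2-/- libraries (-1.47 ± 0.22, adjusted p = 0.00114). In splenic Ly6Chi macrophages it was at 68.1 to 77.3 and 36.9 to 44.5 RPM (-0.76 ± 0.11, adjusted p = 0.000452), and in splenic Ly6Clow macrophages the means were 55.0 and 37.4 RPM without a call. No Insig1 library of the 2 genotypes overlapped in the comparisons with a call. Insig2 was higher in both hepatic subsets, with means of 3.17 and 13.1 RPM in Ly6Chi (1.81) and 4.90 and 15.3 RPM in Ly6Clow macrophages (1.64). Scap was lower in hepatic Ly6Chi (-0.70) and Mbtps2 higher in hepatic Ly6Clow macrophages (0.86), and Mbtps1 was called in none of the 4.

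Of 8 genes of sterol uptake and transport, 7 passed the filter in each genotype comparison, and Vldlr did not. Lrp1, an endocytic receptor for apolipoprotein E, was higher in both hepatic subsets (0.96 and 1.03). In hepatic Ly6Clow macrophages Scarb1, the receptor for high-density lipoprotein (1.51), Nceh1, which hydrolyses cholesteryl esters (20.8 to 109 RPM, 2.30), and Stard4, a sterol carrier (0.59), were higher as well. Npc2, which hands cholesterol out of lysosomes, was lower in hepatic Ly6Chi macrophages (2640 to 835 RPM, -2.07). In the spleen Stard4 was higher in Ly6Chi (0.62) and Lrp8 in Ly6Clow macrophages (1.16), and Soat1 was called in none of the 4.

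The LXR list held 11 genes and was made with the study's own account of LXR in these samples known, so its direction is not independent evidence. In hepatic Ly6Clow macrophages 7 were higher and 1 lower in Rnaset2-/- libraries, where 20.2% of all genes were higher and 22.5% lower, with Nr1h3, which encodes LXRα (43.3 to 796 RPM, 4.11), its partner Rxra (144 to 795 RPM, 2.44), Cd5l (54.8 to 7290 RPM, 6.98), Pltp (2.39), Abcg1 (0.87), Lpcat3 (0.69) and Srebf1 (0.66) higher and Smpdl3a (-0.82) lower. In hepatic Ly6Chi macrophages Abca1 (1.29), Cd5l (6.32) and Pltp (1.27) were higher and Smpdl3a (-1.14) lower, where 30.6% of all genes were called, and with RPM as deposited 5 were called, all of them higher. In splenic Ly6Clow macrophages Nr1h3 (1.35), Cd5l (2.53) and Pltp (1.05) were higher and Abca1 (-0.75) lower, where 8.35% of all genes were called. In splenic Ly6Chi macrophages Nr1h3 (0.73) was higher and Abca1 (-1.33), Mylip (-0.59) and Cd5l (-1.24) lower, where the share of all genes was 22.2%. Cd5l and Nr1h3 also stand in the list of KC markers.

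The 6 sterol genes and the LXR list are set side by side by their medians. In hepatic Ly6Clow macrophages the medians were -0.50 for the 6 sterol genes and 0.87 for the LXR list, and in hepatic Ly6Chi macrophages -0.64 and 0.39, against 0.01 for all genes tested in each. With RPM as deposited the latter were -0.33 and 0.70, where the median of all genes lay at 0.31. In splenic Ly6Clow macrophages they were -0.20 and 0.13, and in splenic Ly6Chi macrophages -0.0044 and 0.08. Within the 6 genes, the calls of lower expression in the liver were those of Sqle, Fdft1 and Cyp51, whereas Srebf2 and the uncalled values of Lss (0.19 and 0.34) lay on the other side. The other enzymes of the mevalonate and sterol pathways are not part of these medians. Their own median, given above, had the opposite sign to that of the 6 genes in hepatic Ly6Clow macrophages. In hepatic Ly6Chi macrophages it was closer to that of all genes, and its sign turned with RPM as deposited.

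**Figure D5:**
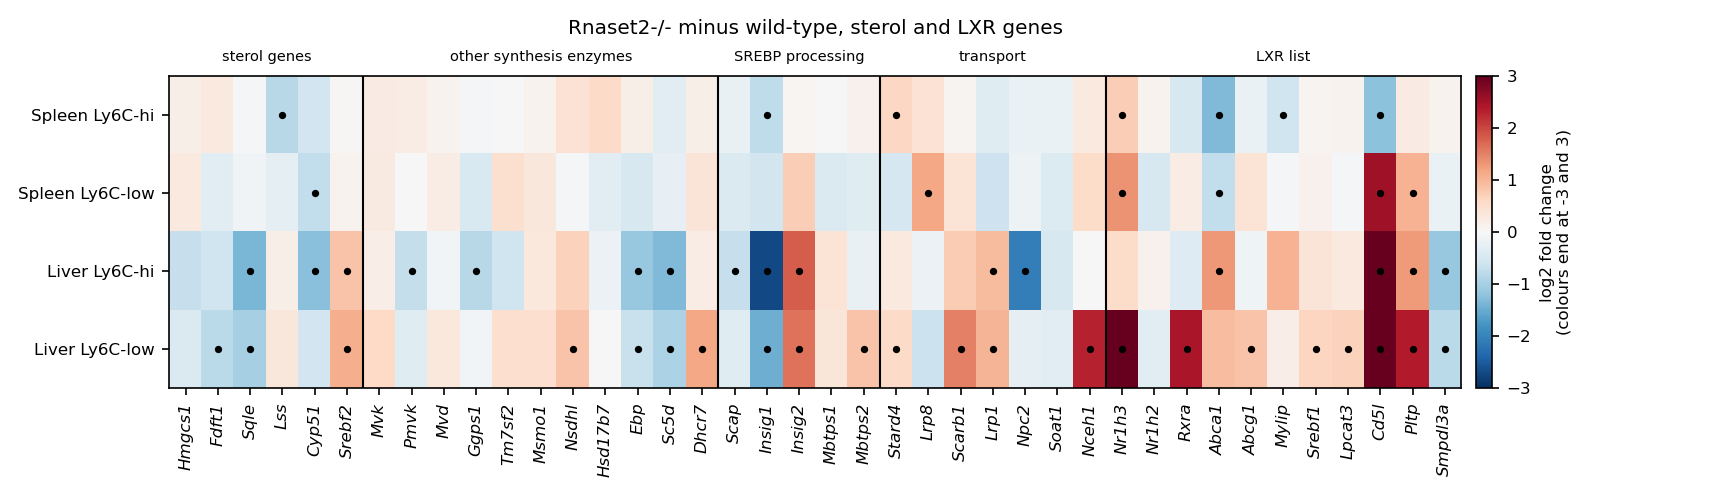
Log2 fold change, Rnaset2-/- minus wild-type (colour, ending at -3 and 3), of the 6 genes, the other enzymes, SREBP processing, transport and the LXR list (columns of genes by list, those reported here) in the 4 genotype comparisons. Insig1 lies below 0 in every comparison and is called lower in 3 of 4, and the LXR list has its highest number of calls (7 higher and 1 lower) in hepatic Ly6Clow macrophages.

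Fatty acid synthesis is driven mainly by SREBP1, the product of Srebf1, itself an LXR target. Of 9 genes, of which 8 passed the filter in the liver, 4 were higher and 1 lower in hepatic Rnaset2-/- Ly6Chi macrophages, with Scd1 (3.02 to 54.3 RPM, 3.40), Fads1 (2.20), Acaca (1.74) and Scd2 (0.93) higher and Me1 (-2.04) lower, where 30.6% of all genes were called. In Ly6Clow macrophages of the liver Acaca (1.71), Scd2 (1.03) and Acly (0.76) were higher and Me1 (-1.90) and Fads2 (-1.38) lower, where 42.7% of all genes were called. In the spleen Fads2 was lower in Ly6Chi (-1.43) and Scd1 in Ly6Clow macrophages (-2.19). In the latter DESeq2 on the recovered reads called 2 genes of the list higher and 1 lower. Among 3 oxysterol enzymes, Cyp27a1 was lower in splenic Ly6Chi macrophages (31.5 to 13.2 RPM, -1.14) and Ch25h in hepatic Ly6Clow macrophages (3.73 to 0.205 RPM, -1.96). The Rnaset2-/- mean of Ch25h was under the detection floor of that group (0.230 to 0.233 RPM). Of the calls of the 6 lists of pathway genes, 6 of 8 in splenic Ly6Chi, 1 of 6 in splenic Ly6Clow, 8 of 18 in hepatic Ly6Chi and 15 of 26 in hepatic Ly6Clow macrophages held in every fit that left out 1 library. Those of Insig1 held in all of them. Without replicate 1 of the hepatic Rnaset2-/- groups the calls of Ebp and Fads2 in Ly6Clow macrophages were lost, and without replicate 2 of the splenic Rnaset2-/- Ly6Clow group that of Lrp8 was. With RPM as deposited the calls of Stard4 in splenic Ly6Chi, of Lrp8 in splenic Ly6Clow and of Scap, Pmvk, Ggps1 and Smpdl3a in hepatic Ly6Chi macrophages were lost, and all 6 were also lost in at least 1 fit that left out a library.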

How the data were processed

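Transcripts of 29 libraries of sorted mouse macrophages were measured with an amplicon panel (Ion AmpliSeq Transcriptome Mouse kit), sequenced on an Ion Proton and counted by the authors in Torrent Suite (AmpliSeqRNA plug-in, mm10, per the submitters' processing notes). The deposited values are RPM, which the authors scaled to a fixed total per library. As RPM are multiples of 1 read, whole reads were recovered for 100% of values within 0.1 read and used for edgeR and DESeq2 only. The total was 11175843 to 21167602 reads, and counting error covers neither preparation nor mice.

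Groups followed the labels. RPM was divided by relative log expression factors of the libraries compared, and log2(RPM + 1) was fitted with limma (3.58.1, trend, R 4.3.3) with only the groups compared, over genes that reached 1 RPM in 3 or more libraries. This follows the scaling and the thresholds of the authors, who used DESeq2. There were 16 comparisons of pairs of groups and 4 interactions. Alternatives were a pseudocount of 0.1, no filter, RPM as deposited, a block for the replicate number, 1 fit of all libraries, edgeR (4.0.16) and DESeq2 (1.42.0), no fold threshold, and leaving out each library. Scripts were tested on simulated data. Named beside the 6 genes were the genes of the pathway lists called in a genotype comparison, and the 5 genes most correlated with their mean. One of those 5 and 1 gene of the lists are not reported here, but the list counts include the latter. The genes and lists were chosen with earlier results of these data known.

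Same-numbered libraries deviated together in every pair (correlation of deviations from the group means over 0.1) in 3 of the pair comparisons, of the subsets in the Rnaset2-/- liver (0.277 to 0.525), of the organs in wild-type Ly6Clow macrophages (0.125 to 0.447) and of Rnaset2-/- Ly6Clow macrophages with KCs (0.133 to 0.373). The pairing comes from the data, not from the labels.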

Additional observations from a re-analysis of the deposited data

Results flagged for a closer look

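Fdft1 in replicate 3 of the KCs was at 30.65 RPM, far from the other 3 libraries (15.8 to 18.3 RPM). The gap passed Dixon's limit for 4 samples, which chance alone passes in about 1 of 20 groups. The same library had the highest values of Hmgcs1 (84.4 RPM) and Sqle (19.5 RPM) among the KCs, but not of Lss or Cyp51.

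The difference between genotypes itself differed between organs, by an interaction test in limma, for 5 genes in Ly6Chi macrophages (Hmgcs1 -0.85, Sqle -1.30, Fdft1 -0.85, Lss 1.05 and Srebf2 0.86) and for 2 in Ly6Clow macrophages (Hmgcs1 -0.70 and Srebf2 0.99), given as the log2 fold change in the liver minus that in the spleen. In Ly6Chi macrophages the value for Lss combines a lower level in the Rnaset2-/- spleen (log2 fold change -0.84) with 0.19 in the liver, whereas those for Sqle and Srebf2 combine -0.03 and 0.02 in the spleen with -1.36 and 0.85 in the liver. Sex differed between the genotypes in the liver as the Xist and Y-linked values show, and its part in these differences cannot be told apart from that of genotype.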

How the results depend on the processing

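Of the 6 genes in 20 comparisons, 910 of 960 values under the alternatives stayed on their side of the threshold, whatever the sign of uncalled values. Of the rest, 21 gained a call and 29 lost one, and no called value changed sign. Among values without a call in both fits, here with the fits that left out 1 library included, 67 of 1196 changed sign. The number of genes called moved by more than 1.5 times as follows, and the cause was not tested. The shares of all genes called, given above, belong to the main fits. Those of the alternatives and of the fits that left out 1 library are not given here. Counts from these fits, here and elsewhere, thus describe the 6 genes or the lists alone. In splenic Ly6Chi macrophages, 2 genes and not 1 were called between genotypes without a fold threshold, with a pseudocount of 0.1, with RPM as deposited, by edgeR and by DESeq2. In splenic Ly6Clow macrophages 0 and not 1 were called by limma without the filter. In hepatic Ly6Chi macrophages 1 was called with RPM as deposited and 5 by DESeq2 (main value 3). Between subsets of the wild-type spleen, 2 were called without a fold threshold and 0 by limma with RPM as deposited and in 1 fit of all libraries (main value 1). Against KCs, Rnaset2-/- Ly6Chi macrophages had 1 gene called with RPM as deposited and 4 in 1 fit of all libraries and by DESeq2 (main value 2), and Rnaset2-/- Ly6Clow macrophages had 2 in 1 fit of all libraries (main value 1). Between organs, 2 genotype differences were called in Ly6Chi macrophages without the filter and with RPM as deposited (main value 5), and 1 in Ly6Clow macrophages with RPM as deposited, in 1 fit of all libraries and by edgeR (main value 2).

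With the replicate block, the genotype comparisons called 0 genes in splenic Ly6Clow and 1 in hepatic Ly6Chi macrophages, the subset comparison in the Rnaset2-/- spleen called 1, the comparison of Rnaset2-/- Ly6Clow macrophages with KCs called 2, and the interactions with organ called 3 in Ly6Chi and 1 in Ly6Clow macrophages. Only the comparison with KCs is among those whose numbers pair the libraries, and in the other 2 of these the block changed no call. Elsewhere the libraries share only a number.

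The spread of group means rose with scaling over all 29 libraries, to 5.50-fold for Sqle, 4.35-fold for Cyp51 and 5.25-fold for Srebf2. Of the 5 genes most correlated with the mean of the 6 genes, 0 were among the 5 by Spearman's rho.

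Leaving out each library in turn, the number of genes called between genotypes was 0 to 2 in splenic Ly6Chi, 0 to 1 in splenic Ly6Clow, 0 to 3 in hepatic Ly6Chi and 2 to 4 in hepatic Ly6Clow macrophages. Between subsets it was 0 to 1 in the wild-type spleen, 1 to 2 in the Rnaset2-/- spleen and 0 to 1 in the liver of either genotype. Between organs it was 4 to 5 and 3 to 5 in wild-type Ly6Chi and Ly6Clow macrophages and 1 to 2 and 0 to 1 in Rnaset2-/- ones. Against KCs it was 5 to 5 and 4 to 5 for the wild-type groups and 1 to 4 and 1 to 2 for the Rnaset2-/- groups. For the interactions with organ it was 1 to 5 in Ly6Chi and 0 to 2 in Ly6Clow macrophages, and with subset 0 to 1 in the spleen and 0 to 0 in the liver. Depth was not limiting for the 6 genes, whose lowest value was 2.35 RPM against a floor of at most 0.268 RPM.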
